A study of Mus musculus with 6 samples.

Results

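The genes of respiratory complexes II to V are described here as they read on 6 microarrays of muscle RNA from mice given 17β-estradiol (E2) or placebo after removal of the ovaries. A probe set is a set of short oligonucleotides that together read 1 transcript. The members are those probe sets whose platform annotation holds exactly 1 gene symbol and whose symbol names a succinate dehydrogenase subunit (Sdha, Sdhb, Sdhc or Sdhd) or begins with Sdhaf, with Uqcr, with Cox followed by a digit, or with Atp5. This rule found 115 of 45101 probe sets, for 58 of the 18194 genes that have a probe set of a single symbol. Of these 58 genes, 8 belong to complex II, 8 to complex III, 17 are subunit genes of complex IV, 8 are assembly genes of complex IV and 17 belong to complex V. The rule used no measured value, and 1 further probe set that names Cox14 together with another gene was left out by it.

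Complex II (succinate dehydrogenase) oxidizes succinate and passes the electrons to ubiquinone, complex III (the cytochrome bc1 complex) hands them on to cytochrome c, and complex IV (cytochrome c oxidase) gives them to oxygen. Complexes III and IV pump protons across the inner mitochondrial membrane, and complex V (ATP synthase) makes ATP from the backflow. Muscle is rich in these complexes, most of all in its oxidative fibres, and striated muscle uses its own isoforms of several complex IV subunits. Every complex but complex II has subunits encoded in mitochondrial DNA, and the genes described here are the nuclear ones.

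OVX + E2 is 3 samples of female C57BL/6 mice that were ovariectomized at 4 months of age and then carried pellets of 0.18 mg E2 with a release time of 60 days. OVX is 3 samples of mice with the same operation and placebo pellets, so both groups lack ovaries, and no ovary-intact group is among these arrays. The sources used here do not say whether an array stands for 1 mouse or for pooled mice. The p-values thus cover the spread among these 6 samples alone, part of which may be technical. The labels give left ventricle as the tissue and the title of the series and the methods give skeletal muscle, with soleus as the muscle. All 21 measured skeletal muscle markers were in the top 5% of the arrays by their brightest probe set, against 1 of 14 heart markers, Sln, which skeletal muscle also expresses. The values are log2 expression values in arbitrary units, and each difference is OVX + E2 minus OVX.

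Some features of the whole data set touch the values below. Within an array the values spread with an SD of 1.14 to 1.16 in OVX + E2 and 1.20 to 1.22 in OVX, while the array medians were close together. Bright probe sets differed below 0 as a body, and a difference is read here against that of all probe sets of like brightness or after cyclic loess, which takes out such a trend. The arrays of a group also differed in fibre genes, with Myh4, a myosin of fast type IIB fibres, at 13.35, 12.60 and 7.78 in OVX + E2 and 13.07, 13.23 and 13.90 in OVX. All 11 fast-fibre markers differed below 0 with a median of −0.29 and overlapping groups, and their summed level lay between 15.87 and 16.66 in OVX + E2 and between 16.55 and 17.06 in OVX on the log2 scale. Of 10 slow-fibre markers, whose fibres are oxidative, 4 differed below 0, with a median of 0.02 and summed levels of 16.73 to 16.84 in OVX + E2 and 16.52 to 16.89 in OVX. Of the 21 skeletal muscle markers, which include most of the fast-fibre ones, 20 differed below 0, 5 without overlap. Of 9 endothelial markers 8 differed below 0, 0 without overlap. All 7 fibroblast markers differed below 0 as well, 3 of them without overlap of the groups, with summed levels of 12.27 to 12.61 in OVX + E2 and 12.54 to 12.92 in OVX. Of all probe sets 52.3% differed below 0 and 11.4% were lower without overlap. The latter share was 22.6% to 42.9% in ranges of 1 unit with means from 8 to 14. Of 7 fat-cell markers 3 differed below 0, with summed levels of 12.62 to 12.76 in OVX + E2 and 12.32 to 13.01 in OVX. The part of fibre type, of these cells and of the spread of the arrays in the differences below was not tested. In bulk RNA, fewer cells of a type and less RNA per cell cannot be told apart.

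Genes of complexes II to V read slightly lower in OVX + E2 than in OVX, by a median of −0.12 over the 58 genes, and 53 of the 58 differed below 0. The shift was close to that of bright probe sets in general, which include the members. It was not seen after cyclic loess, which takes out a shift that bright probe sets share. Of the 115 probe sets 95 differed below 0, or 82.6%, against 52.3% of all probe sets. In 42 of them, or 36.5%, every OVX + E2 array was below every OVX array, against 11.4% of all probe sets, and in 3, or 2.61%, every OVX + E2 array was above every OVX array, against 9.76% of all. An unadjusted p under 0.05 in limma was reached by 34 in the lower direction, or 29.6% against 9.43% of all, and by 2 in the higher direction, or 1.74% against 4.35% of all. At the study's threshold, an unadjusted p of 0.001, 1 probe set passed, which is 0.87% of the members against 0.213% of all probe sets in either direction and 0.197% in the lower direction. That probe set was for Cox10. After Benjamini-Hochberg adjustment over all probe sets 0 members and 0 probe sets in all passed 0.05, and the smallest adjusted p in limma was 0.308.

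Most members that differed above 0 were dim, 17 with a mean under 8, 1 from 8 to 9 and 2 of 9 or more. Judged by its brightest probe set, a gene was in the top 5% of the arrays in 44 of 58 cases. A mean of 13 or more was found in 10 probe sets, close to the top of the scale (array maxima of 14.04 to 14.19), where a change may show poorly. Of 75 probe sets with a mean of 9 or more 73 differed below 0, with a median of −0.12, whereas 13 of 30 with a mean under 8 did so, with a median of 0.02. The share below 0 among all probe sets that bright is not given here. All probe sets had medians of −0.16 to −0.09 in the ranges from 9 to 14, and of 0.02 and −0.02 in those from 6 to 7 and from 7 to 8. The best filled range, with means from 12 to 13, held 33 members with a median of −0.12 and 266 probe sets in all with a median of −0.13. In this range the groups did not overlap in the lower direction for 22 members, or 66.7%, and for 42.9% of all 266. In the range from 11 to 12 the medians were −0.15 for 15 members and −0.14 for all 446, and no overlap was seen in 5 members and in 42.2% of all. From 13 to 14 the medians were −0.11 for 10 members and −0.09 for all 84, and no overlap was seen in 5 members and in 22.6% of all. The share without overlap was 20%, 42.9% and 30% of members from 8 to 9, 9 to 10 and 10 to 11. Of all probe sets it was 30%, 36.3% and 39.9% there. After cyclic loess the members' median was 0.01, 48 of 115 differed below 0 (41.7% against 51.2% of all probe sets), and an unadjusted p under 0.05 was reached by 1 member in the lower direction (4.02% of all) and by 5 in the higher direction (3.57% of all).

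**Figure D1:**
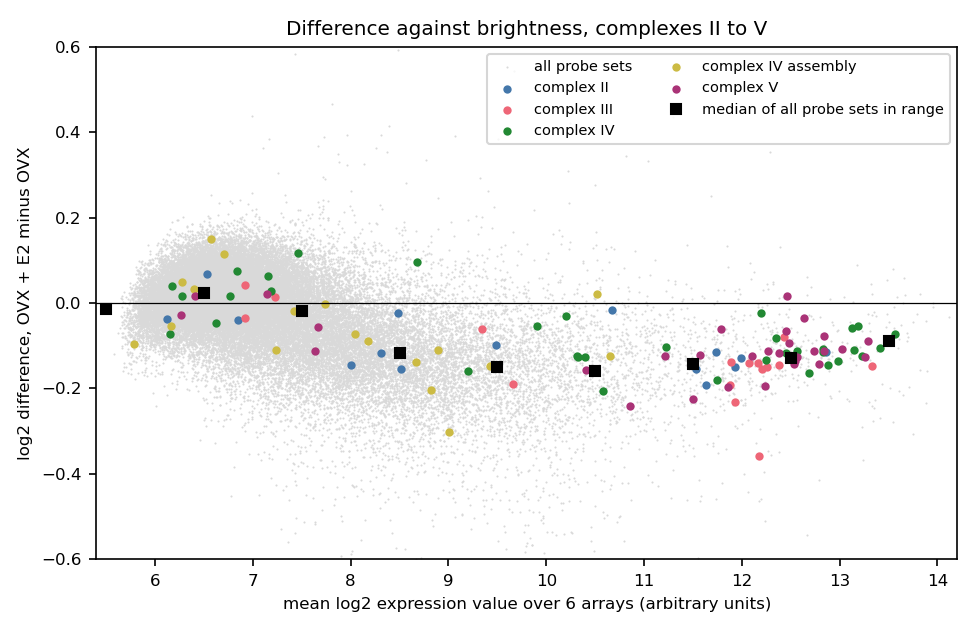
Log2 difference OVX + E2 minus OVX on the vertical axis (cropped at −0.6 and 0.6), against the mean over the 6 arrays (horizontal axis, log2 value in arbitrary units) for all probe sets in grey and the 115 members in colour by complex. Black squares are medians of all probe sets in ranges of 1 unit, and most members above a mean of 9 lie close to them.

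Part of the promoters of these genes hold letters of factors known to drive respiratory genes. NRF1 and the ETS-family factor GABP (also called NRF2) are known activators of nuclear respiratory genes, YY1 and Sp1 bind many of their promoters, and the estrogen-related receptors work on them together with the coactivator PGC-1α. Windows from 250 bases before to 50 bases after the start were taken from RefSeq (GRCm38.p6), where 45 of the 58 genes had 49 promoters, and each motif was searched on both strands. NRF1 letters were found in 12 of the 49 promoters, or 24.5%, against 4.6% of all 32851 promoters in that table, and ETS letters, CCGGAAG, in 21, or 42.9% against 8.86%. YY1 letters, AAGATGGC, stood in 5 promoters, or 10.2% against 2.75%, and Sp1 letters, GGGCGG, in 24, or 49% against 35.7%. The full palindrome of an estrogen response element matched 0 member promoters and 0.07% of all. Those of an estrogen-related receptor site, TCAAGGTCA, which overlap the palindrome in GGTCA, matched 2, of Atp5g3 and Sdhd, or 4.08% against 0.423%. The median GC content was 58.7% in the member promoters and 52.7% in all. A match is a description of the letters and not a bound site.

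Cox10 was the member that passed the threshold. It encodes the heme A farnesyltransferase that prepares the heme of complex IV. Its brightest probe set measured 8.89, 8.93 and 8.74 in OVX + E2 and 9.14, 9.14 and 9.18 in OVX. Every OVX + E2 array was below every OVX array, and the OVX arrays lay close together. Cox10 fell by 0.30 on the log2 scale, or to 0.811 of its OVX level (SE 0.056), and passed the unadjusted threshold in limma, with an adjusted p of 0.308. All probe sets with means from 9 to 10 had a median of −0.15. Another probe set of Cox10 measured 8.79, 8.73 and 8.64 in OVX + E2 and 8.85, 8.88 and 9.04 in OVX, again without overlap, with a difference of −0.20 (limma adjusted p = 0.312). A dim one, with a mean of 6.16, had overlapping groups and a difference of −0.05. After cyclic loess the difference of the first was −0.17, with the groups still apart. Cox10 did not pass 0.001 when any single array was left out, and its difference then lay between −0.34 and −0.25.

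Uqcrc1, a core protein of complex III, had the largest difference of all 115 probe sets in size. It measured 12.04, 12.20 and 11.75 in OVX + E2 and 12.29, 12.36 and 12.42 in OVX. The groups did not overlap, and the spread in OVX + E2 came mainly from replicate 3. The difference was −0.36 (SE 0.11, limma adjusted p = 0.310), which is 0.23 below the median of its brightness range, and −0.22 after cyclic loess, with overlapping groups. Without both arrays numbered 3 it was −0.20. The promoters of the only member that passed and of the one that differed most are given here in lower case with motif matches in capitals, Cox10 at chr11:64079423-64079722 on the minus strand and Uqcrc1 at chr9:108936398-108936697 on the plus strand (GRCm38.p6, RefSeq). The capitals in Cox10 mark Sp1, ETS, Sp1 and YY1 letters in this order, and those in Uqcrc1 mark 2 NRF1 matches, both just after the start.
Cox10: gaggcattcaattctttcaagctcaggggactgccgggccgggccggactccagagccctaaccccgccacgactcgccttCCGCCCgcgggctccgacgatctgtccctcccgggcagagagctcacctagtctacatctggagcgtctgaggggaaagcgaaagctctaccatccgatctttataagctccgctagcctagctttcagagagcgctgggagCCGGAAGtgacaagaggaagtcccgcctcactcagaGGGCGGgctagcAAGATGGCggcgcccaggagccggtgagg
Uqcrc1: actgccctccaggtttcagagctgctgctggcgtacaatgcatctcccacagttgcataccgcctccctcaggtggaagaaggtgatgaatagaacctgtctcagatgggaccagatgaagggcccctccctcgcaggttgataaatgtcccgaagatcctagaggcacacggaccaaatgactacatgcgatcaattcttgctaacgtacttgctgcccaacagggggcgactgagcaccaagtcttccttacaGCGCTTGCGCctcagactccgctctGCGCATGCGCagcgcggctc

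In complex III all 8 genes differed below 0, with a median of −0.15 and a range from −0.36 to −0.14. Of its 16 probe sets 11 were lower without overlap, beside 11.4% of all probe sets and 42.9% of those with means from 12 to 13. An unadjusted p under 0.05 in limma was reached by 10 in the lower direction, beside 9.43% of all and 41% of those with means from 12 to 13, and 0 passed 0.001. Against their brightness ranges the genes had a median of −0.02, and after cyclic loess of −0.01.

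Uqcr10, a small subunit of complex III, had 2 of 3 probe sets without overlap. The brightest measured 11.86, 11.94 and 11.66 in OVX + E2 and 12.01, 12.09 and 12.05 in OVX, a difference of −0.23 (SE 0.072, limma adjusted p = 0.311). Another gave −0.19 (SE 0.050) without overlap, and the dimmest −0.06 with overlapping groups. Uqcrh, the hinge protein that helps cytochrome c to dock, measured 12.12, 12.12 and 12.06 in OVX + E2 and 12.25, 12.25 and 12.22 in OVX, where the arrays of a group lay closer together than the groups did. Its difference was −0.14 (SE 0.038, limma adjusted p = 0.308), and a second probe set gave −0.16. Uqcrfs1, the Rieske iron-sulfur protein, measured 11.95, 12.06 and 12.00 in OVX + E2 and 12.12, 12.16 and 12.15 in OVX, a difference of −0.14 (SE 0.042, limma adjusted p = 0.310). Uqcrb, which lies near the ubiquinone site, differed by −0.19 and −0.15 and the small subunit Uqcr11 by −0.14. Uqcrc2, the other core protein, differed by −0.15 and −0.08 in its 2 probe sets. The dim probe sets of Uqcrq, with means of 6.92, 6.92 and 7.23, were near 0 in difference, while the bright one differed by −0.15.

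**Figure D2:**
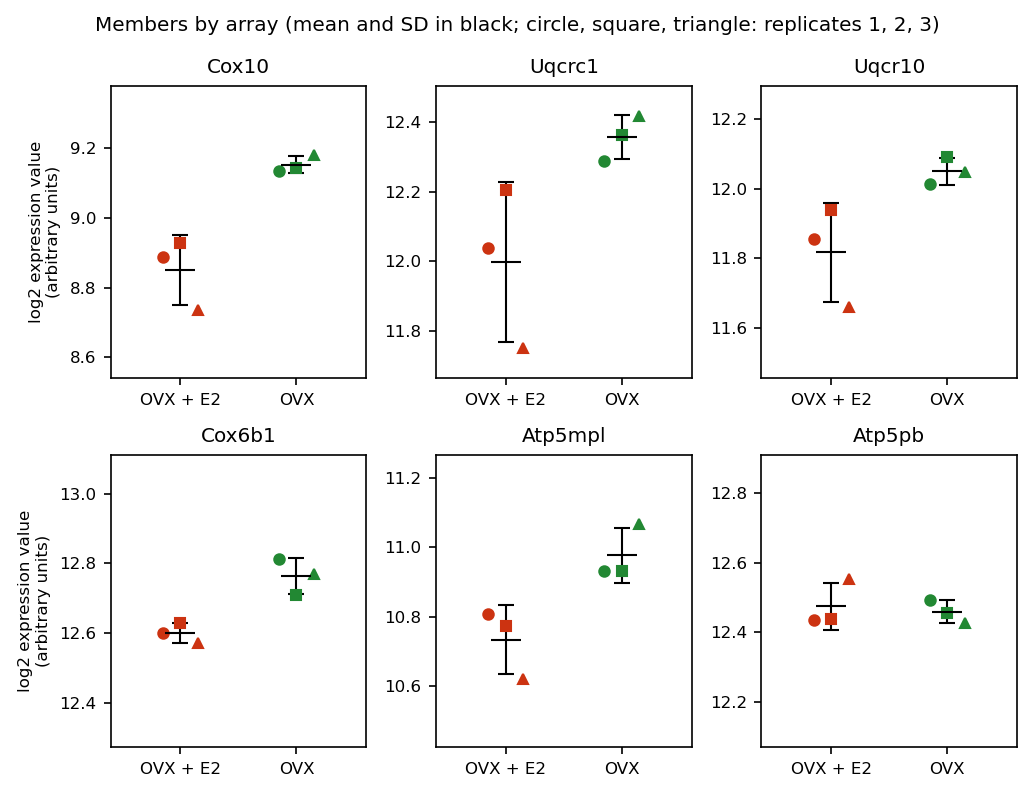
Log2 expression values (vertical axes, arbitrary units, the same span in each panel) of Cox10, Uqcrc1, Uqcr10, Cox6b1, Atp5mpl and Atp5pb on the OVX + E2 arrays (left, red) and the OVX arrays (right, green), with symbols for replicates and black bars for mean and SD of 3 arrays. The groups are apart in the first 5 genes and overlap in Atp5pb.

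Complex II varied most among arrays of the same group, with a pooled SD of its mean over genes of 0.090, beside 0.027 to 0.054 in the other groups of genes. Its 8 genes, 4 subunits and 4 assembly factors, all differed below 0, with a median of −0.14 and a range from −0.19 to −0.02. Of 15 probe sets 3 were lower without overlap, beside 11.4% of all probe sets. In the brightness ranges from 8 to 13, which hold most of the 15, the share of all probe sets was 30% to 42.9%. Without OVX + E2 replicate 3 the median was −0.08. After cyclic loess the median was 0.00. Sdha, the flavoprotein that holds the site for succinate, measured 11.91, 12.08 and 11.78 in OVX + E2 and 12.09, 11.87 and 12.19 in OVX. OVX replicate 3 was highest, OVX replicate 1 and OVX + E2 replicate 2 came next, and OVX + E2 replicate 3 was lowest. The groups overlapped, with a difference of −0.13. Sdhd, a membrane anchor, ordered the arrays almost in the same way, with 11.80, 12.03 and 11.72 in OVX + E2 and 11.99, 11.84 and 12.18 in OVX. Sdhb, the iron-sulfur subunit, did not, and measured 12.79, 12.83 and 12.79 in OVX + E2 and 12.94, 12.94 and 12.88 in OVX without overlap, a difference of −0.12 (SE 0.038, limma adjusted p = 0.318). Sdhc, the other anchor, differed by −0.19 and −0.16. The other probe sets of Sdha differed by −0.12, −0.04 and 0.07, the last with a mean of 6.53 and higher without overlap. The dimmer probe set of Sdhd, with a mean of 8.48, differed by −0.02. For the 4 subunits the median difference was −0.14 with all arrays and −0.01 without both arrays numbered 3.

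Of the complex II assembly factors, Sdhaf1, which brings iron-sulfur clusters to the complex, measured 8.44, 8.52 and 8.34 in OVX + E2 and 8.59, 8.62 and 8.56 in OVX, a difference of −0.15 (SE 0.054, limma adjusted p = 0.327). Sdhaf2, which helps to attach the flavin to Sdha, differed by −0.12 and −0.10 in its 2 probe sets with overlapping groups, and Sdhaf3 by −0.15 and −0.04. Sdhaf4, at 10.49, 10.71 and 10.80 in OVX + E2 and 10.76, 10.71 and 10.58 in OVX, differed by −0.02, which is above the median of its brightness range (−0.16).

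After cyclic loess the mean deviation of the 4 complex II subunits from the mean of all arrays was −0.05, 0.14 and −0.10 on the OVX + E2 arrays and 0.00, −0.09 and 0.10 on the OVX arrays. OVX + E2 replicate 2 had the highest value and OVX replicate 3 the next, while OVX + E2 replicate 3 had the lowest, close to OVX replicate 2. By their brightest probe sets Sdha, Sdhc and Sdhd were below 0 on OVX + E2 replicate 3 and above 0 on OVX replicate 3. Sdhb went the other way, with 0.04 and −0.03 on these 2 arrays. Ppargc1a, which encodes PGC-1α, a coactivator of nuclear respiratory genes, was named after its values had been seen, and it measured 10.28, 11.71 and 9.62 in OVX + E2 and 10.26, 10.05 and 10.92 in OVX. All 5 of its probe sets had their highest value on OVX + E2 replicate 2 and their lowest on OVX + E2 replicate 3. This probe set, its brightest, differed by 0.13 (SE 0.50, limma adjusted p = 0.917), and the other 4 by −0.18 to 0.05. Of further regulators looked at, Ppargc1b measured 9.23, 8.88 and 9.15 in OVX + E2 and 9.33, 9.49 and 9.06 in OVX. It was thus lowest on OVX + E2 replicate 2, where Gabpa, which encodes a subunit of GABP, was highest. By their brightest probe sets, Esrra and Tfam were highest on OVX replicate 1 and Nrf1 on OVX + E2 replicate 1. Of 47 member genes whose brightest probe set had a mean of 9 or more, 24 were highest on OVX + E2 replicate 2 after cyclic loess, against 15.5% of all 3924 probe sets that bright. As deposited, 35 of the 47 were lowest on OVX + E2 replicate 3, against 49.3% of all probe sets that bright, and after cyclic loess 14 of the 47 were, against 26.2%. The array on which most of the 47 were lowest after cyclic loess was OVX replicate 3, with 18, against 29.5% of all, while Ppargc1a was second highest there. The genes of 1 array share that RNA sample, so these counts describe arrays and not independent events.

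**Figure D3:**
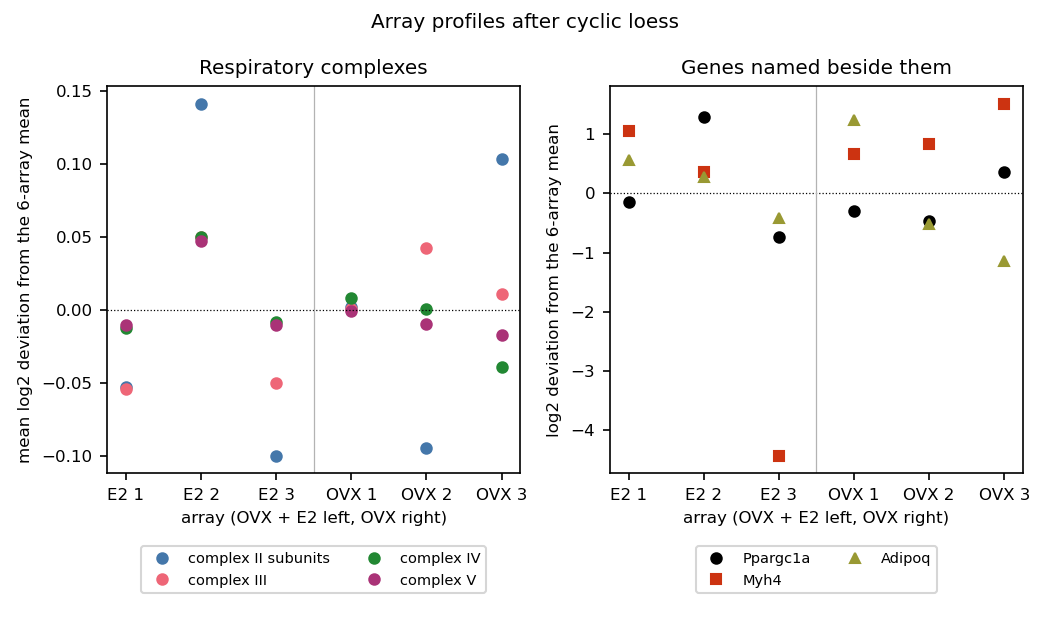
Deviation from the mean of the 6 arrays after cyclic loess (vertical axes, log2) on each array (horizontal axis, OVX + E2 replicates left, OVX replicates right), as the mean over the genes of complex II subunits and of complexes III, IV and V in the left panel and for Ppargc1a, Myh4 and the fat-cell gene Adipoq in the right panel. The mean of the complex II subunits and Ppargc1a are both highest on OVX + E2 replicate 2 and next on OVX replicate 3. Among the 4 subunits Sdhb alone (not drawn singly) is below 0 on OVX replicate 3. Myh4 is low on OVX + E2 replicate 3 alone.

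Of the 17 subunit genes of complex IV 14 differed below 0, with a median of −0.11 and a range from −0.18 to 0.12. Without OVX + E2 replicate 3 the median was −0.07. Of the 35 probe sets 9 were lower without overlap, beside 11.4% of all probe sets. Over the brightness ranges that hold the 35, the share of all ran from 3.62% (means from 6 to 7) to 42.9% (means from 12 to 13). With all arrays the median was 0.01 above that of the brightness ranges, and it was 0.02 after cyclic loess. Cox6b1, a small subunit on the side of the intermembrane space, measured 12.60, 12.63 and 12.57 in OVX + E2 and 12.81, 12.71 and 12.77 in OVX, without overlap, and differed by −0.16 (SE 0.042, limma adjusted p = 0.308). Its second probe set differed by −0.11, also without overlap. Cox4i1, the common isoform of subunit 4, differed by −0.11, and Cox5a, the other subunit of the same module, by −0.12, −0.05 and −0.02 in its 3 probe sets. The 6 probe sets of Cox5b differed by −0.14 to 0.03, and the 2 above 0 were the dim ones, with means of 6.27 and 7.18. The 2 probe sets of Cox6c differed by −0.10 and −0.11. Cox7c was measured by 2 probe sets only, with means of 6.18 and 6.83, below the array medians (percentiles of 8.5 and 45.7). Their differences were 0.04 and 0.07.

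Striated muscle replaces the ubiquitous isoforms of subunits 6A, 7A and 8 by Cox6a2, Cox7a1 and Cox8b, in heart as well as in skeletal muscle, so these genes do not tell the tissues apart. Cox6a2 measured 13.24, 13.16 and 13.10 in OVX + E2 and 13.35, 13.28 and 13.23 in OVX, a difference of −0.12 with groups that just overlapped. Cox7a1 measured 11.71, 11.81 and 11.43 in OVX + E2 and 11.88, 11.87 and 11.74 in OVX, a difference of −0.18 with overlap. Cox8b measured 12.83, 12.87 and 12.63 in OVX + E2 and 12.95, 12.91 and 12.80 in OVX, a difference of −0.11. In each of the 3 genes replicate 3 was the lowest array of its group.

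Their ubiquitous partners differed by as much. Cox6a1 measured 10.36, 10.73 and 10.33 in OVX + E2 and 10.83, 10.59 and 10.62 in OVX, a difference of −0.21 with overlap. Cox7a2 measured 12.86, 12.77 and 12.80 in OVX + E2 and 12.99, 12.99 and 12.88 in OVX, a difference of −0.14 without overlap (SE 0.047, limma adjusted p = 0.318). Cox8a measured 10.28, 10.50 and 10.20 in OVX + E2 and 10.59, 10.40 and 10.38 in OVX, a difference of −0.13. OVX + E2 replicate 2 and OVX replicate 1 were the highest arrays of their groups for both Cox6a1 and Cox8a.

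Whether E2 went with a change in the balance of the isoforms was tested by the log2 ratio of muscle over ubiquitous isoform within each array. The size of such a ratio depends on the probes, so only its change between the groups is read, and the probe set of Cox6a2, with a mean of 13.23, lies near the top of the scale. For Cox6a2 over Cox6a1 it was 2.69 ± 0.24 in OVX + E2 and 2.61 ± 0.082 in OVX (SD, n = 3 each), a difference of 0.08 (two-sided exact permutation test, p = 0.6). For Cox7a1 over Cox7a2 it was −1.16 ± 0.20 in OVX + E2 and −1.12 ± 0.021 in OVX (SD, n = 3 each), a difference of −0.04 (exact permutation test, p = 0.7). For Cox8b over Cox8a it was 2.45 ± 0.096 in OVX + E2 and 2.43 ± 0.071 in OVX (SD, n = 3 each), a difference of 0.02 (exact permutation test, p = 0.7). Over the 3 ratios the adjusted p was 0.7 for each, and 3 arrays against 3 allow no p below 0.1, so no size of change could have passed 0.05. Each of the 3 differences changed sign when single arrays were left out.

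**Figure D4:**
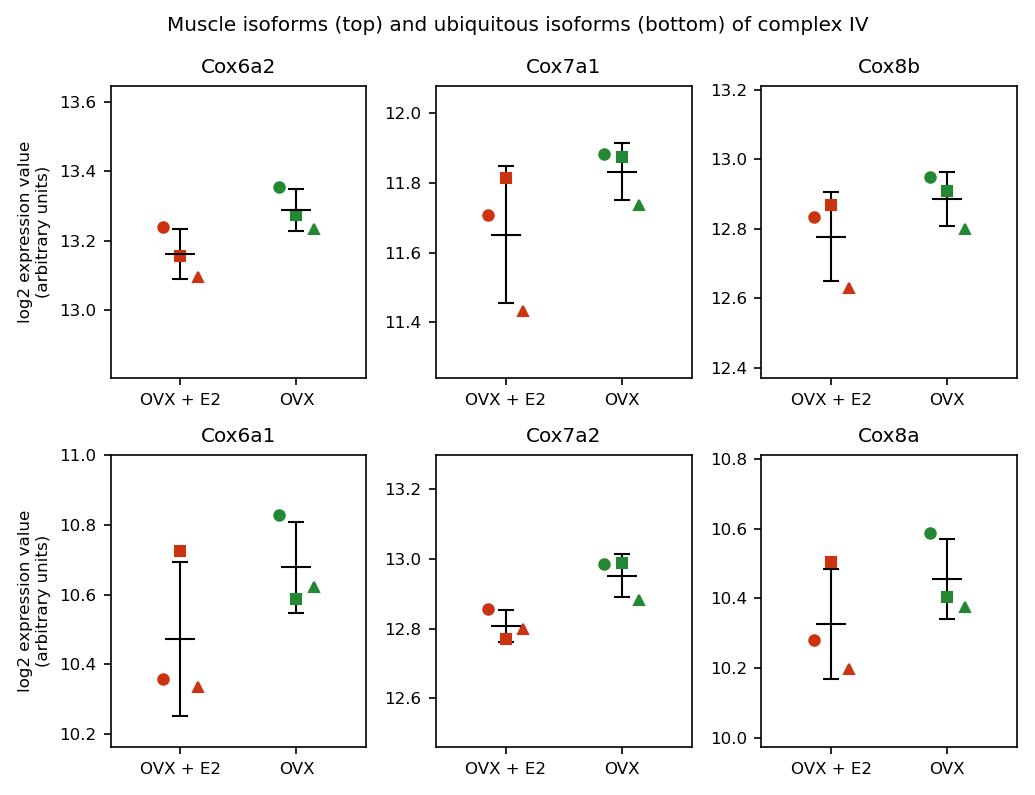
Log2 expression values (vertical axes, arbitrary units, the same span in each panel) of the muscle isoforms Cox6a2, Cox7a1 and Cox8b (top) and the ubiquitous isoforms Cox6a1, Cox7a2 and Cox8a (bottom) on the OVX + E2 arrays (left, red) and the OVX arrays (right, green), with circle, square and triangle for replicates 1, 2 and 3 and black bars for mean and SD of 3 arrays. Muscle and ubiquitous isoforms are both lower on average in OVX + E2, and the groups overlap in every gene but Cox7a2.

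The promoters of the isoforms are shown because the muscle and ubiquitous genes differ in the motif letters they hold. They lie at chr7:30183921-30184220 (Cox7a1, plus strand), chr7:140900397-140900696 (Cox8b, minus strand), chr5:115348909-115349208 (Cox6a1, minus strand), chr9:79759804-79760103 (Cox7a2, minus strand) and chr19:7217567-7217866 (Cox8a, minus strand) in GRCm38.p6, and Cox6a2 is named only. Capitals mark 2 E-boxes of the letters CAGCTG, which myogenic factors are known to bind, in Cox8b, 2 NRF1 matches, 2 Sp1 matches and 1 ETS match in Cox6a1, 1 Sp1 match in Cox7a2 and 2 ETS matches in Cox8a. Cox7a1 held 0 matches of the motifs searched in this window. The E-box letters stood in 2 member promoters, of Cox8b and Atp5b, or 4.08% against 16.3% of all promoters, and those of MEF2 in 1, of Cox5b, or 2.04% against 3.69%.
Cox7a1: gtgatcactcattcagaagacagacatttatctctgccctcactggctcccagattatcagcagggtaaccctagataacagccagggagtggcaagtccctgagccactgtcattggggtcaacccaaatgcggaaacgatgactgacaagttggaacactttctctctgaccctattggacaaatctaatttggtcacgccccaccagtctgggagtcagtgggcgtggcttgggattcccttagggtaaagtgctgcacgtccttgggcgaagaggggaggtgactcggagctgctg
Cox8b: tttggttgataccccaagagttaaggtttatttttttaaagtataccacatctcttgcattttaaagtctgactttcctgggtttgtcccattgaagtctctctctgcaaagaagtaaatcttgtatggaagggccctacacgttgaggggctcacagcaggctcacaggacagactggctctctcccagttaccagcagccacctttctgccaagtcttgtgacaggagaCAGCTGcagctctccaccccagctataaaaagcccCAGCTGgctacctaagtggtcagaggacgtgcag
Cox6a1: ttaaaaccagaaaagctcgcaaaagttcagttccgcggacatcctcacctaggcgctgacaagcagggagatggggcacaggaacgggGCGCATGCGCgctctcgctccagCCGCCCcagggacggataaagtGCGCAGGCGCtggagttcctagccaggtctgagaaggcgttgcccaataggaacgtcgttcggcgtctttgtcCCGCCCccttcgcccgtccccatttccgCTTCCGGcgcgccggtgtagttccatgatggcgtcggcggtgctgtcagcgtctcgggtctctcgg
Cox7a2: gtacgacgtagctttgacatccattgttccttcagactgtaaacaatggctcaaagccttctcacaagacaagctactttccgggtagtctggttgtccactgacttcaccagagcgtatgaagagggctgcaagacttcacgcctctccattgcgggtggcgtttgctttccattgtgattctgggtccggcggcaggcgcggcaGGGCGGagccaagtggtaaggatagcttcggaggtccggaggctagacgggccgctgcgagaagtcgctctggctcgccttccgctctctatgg
Cox8a: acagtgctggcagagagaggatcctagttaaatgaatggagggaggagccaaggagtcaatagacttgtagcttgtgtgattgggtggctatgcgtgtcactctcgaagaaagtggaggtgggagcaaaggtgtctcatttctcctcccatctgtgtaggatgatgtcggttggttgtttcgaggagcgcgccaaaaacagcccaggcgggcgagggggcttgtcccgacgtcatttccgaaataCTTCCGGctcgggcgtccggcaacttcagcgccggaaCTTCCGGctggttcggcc

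Cox8c, an isoform known from testis, stood highest against its brightness of all the members. It measured 8.76, 8.69 and 8.72 in OVX + E2 and 8.60, 8.57 and 8.71 in OVX on its brighter probe set, a difference of 0.10 with overlap as deposited. After cyclic loess this was 0.21 without overlap, and its other probe set differed by 0.12 without overlap as deposited (SE 0.048, limma adjusted p = 0.357). Cox4i2, known from lung, and Cox6b2 and Cox7b2, known from testis, had means of 7.15, 6.62 and 6.15, near or below the array medians, and differed by 0.06, −0.05 and −0.07. Cox7a2l, a relative of Cox7a2 that takes part in supercomplexes, differed by −0.13, −0.05 and −0.03 in its 3 probe sets.

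Among the 8 assembly genes of complex IV, which include Cox10, 6 differed below 0, with a median of −0.11 and a range from −0.30 to 0.11. Their 18 probe sets included 1 that passed 0.001, for Cox10, and 4 lower without overlap, beside 11.4% of all probe sets. By brightness range, that share of all was 3.62% to 10.7% for means from 5 to 8. For means from 8 to 11 it was 30% to 39.9%. Without OVX replicate 3 the median was −0.06. Cox17, the copper chaperone of the intermembrane space, measured 10.59, 10.62 and 10.54 in OVX + E2 and 10.76, 10.68 and 10.69 in OVX, a difference of −0.12 (SE 0.043, limma adjusted p = 0.324). Cox15, which acts after Cox10 in making heme A, differed by −0.11 to 0.00 in its 4 probe sets, all with overlapping groups. Cox11, which puts copper into subunit 1, differed by −0.14 on its brighter probe set and by 0.11 on a dim one, Cox16 by −0.11, 0.05 and −0.10, and Cox18, which inserts subunit 2 into the membrane, by −0.09. Cox19 measured 10.43, 10.47 and 10.67 in OVX + E2 and 10.58, 10.62 and 10.32 in OVX, a difference of 0.02. Cox20, a chaperone of subunit 2, gave opposite directions, with −0.15 (SE 0.043) on its brighter probe set and 0.15 (SE 0.049) on a dim one with a mean of 6.57, both without overlap. The dim value was the highest difference of all 115 probe sets. Of the 37 genes with several probe sets 14 had at least 1 at or above 0, and of the 22 genes with several probe sets of mean 9 or more 21 had all of these below 0.

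Complex V differed below 0 in all 17 genes by the probe set with the largest interquartile range, and in all but Atp5pb by the brightest one. By the first the median was −0.12 and the range −0.24 to −0.06. Of its 31 probe sets 15 were lower without overlap, beside 11.4% of all probe sets and 42.9% of those with means from 12 to 13. The median was 0.00 from that of the brightness ranges, and 0.02 after cyclic loess. The 5 genes of the F1 head, where ATP is made, had a median of −0.11, and the 12 genes of the membrane part and stalk had −0.12.

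Atp5mpl, a small membrane subunit, had the largest difference in complex V, with 10.81, 10.77 and 10.62 in OVX + E2 and 10.93, 10.93 and 11.07 in OVX. The groups did not overlap, and the difference was −0.24 (SE 0.064, limma adjusted p = 0.308). Atp5j2, a subunit of the membrane part, measured 12.19, 12.18 and 12.05 in OVX + E2 and 12.41, 12.32 and 12.28 in OVX. The difference was −0.20 (SE 0.055, limma adjusted p = 0.308), and each of its 3 probe sets was lower without overlap. Atp5a1 and Atp5b, the alpha and beta subunits of the head, differed by −0.13 and −0.11 on their brightest probe sets. Of the other head subunits, Atp5c1 (gamma) differed by −0.08, Atp5d (delta) by −0.20 and −0.09 and Atp5e (epsilon) by −0.12. In the stalk and the membrane part, Atp5o differed by −0.14 and −0.16 and Atp5j by −0.14, and the 7 probe sets of Atp5h, Atp5k, Atp5l and Atp5md differed by −0.12 to −0.03. The 3 genes that encode the c subunit of the ring, Atp5g1, Atp5g2 and Atp5g3, differed by −0.13, −0.23 and −0.09, and Atp5g2 measured 11.48, 11.53 and 11.15 in OVX + E2 and 11.64, 11.50 and 11.70 in OVX with overlap. Atp5pb, the b subunit of the stalk, went furthest against its brightness within complex V. Its brighter probe set measured 12.43, 12.44 and 12.55 in OVX + E2 and 12.49, 12.46 and 12.43 in OVX, a difference of 0.02 (0.15 after cyclic loess, without overlap), and the other differed by −0.06.

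**Figure D5:**
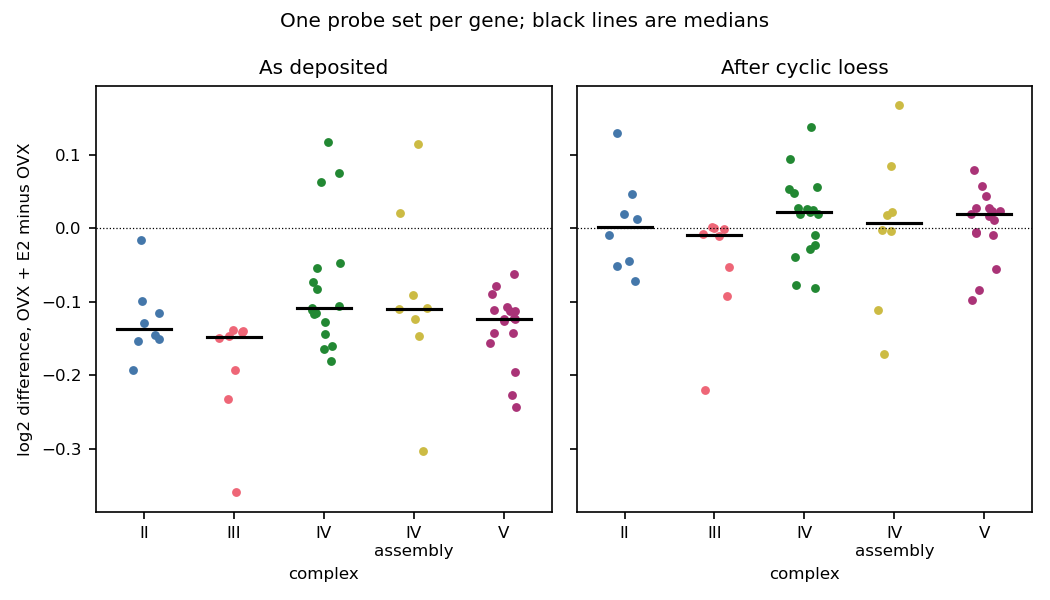
Log2 difference OVX + E2 minus OVX (vertical axis) for each gene of complexes II, III, IV, IV assembly and V (horizontal axis, 1 point per gene, the probe set with the largest interquartile range), as deposited on the left and after cyclic loess on the right, with black lines at the medians. The medians lie between −0.15 and −0.11 as deposited and between −0.01 and 0.02 after cyclic loess.

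The complexes were compared with each other by the difference of their mean deviations within each array, over 6 pairs. Complex III over complex IV gave −0.05 ± 0.028 in OVX + E2 and 0.05 ± 0.050 in OVX (SD, n = 3 each), a difference of −0.11 (two-sided exact permutation test, p = 0.1, adjusted p = 0.3). Complex IV over complex V gave 0.03 ± 0.016 in OVX + E2 and −0.03 ± 0.0099 in OVX (SD, n = 3 each), a difference of 0.06 (exact permutation test, p = 0.1, adjusted p = 0.3). In both pairs the groups did not overlap, and this p is the smallest that 3 arrays against 3 allow. The other 4 pairs differed by −0.05 to 0.06, with an exact permutation p between 0.2 and 1. After cyclic loess complex III over complex IV differed by −0.06 (exact permutation test, p = 0.2) and complex IV over complex V by 0.011 (exact permutation test, p = 0.3), which is smaller than as deposited in both pairs.

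Other genes of the pathway that the rule does not take in also differed mostly below 0. They include assembly factors with other names, and genes outside the complexes such as Cycs (cytochrome c), Ckmt2 and the carriers Slc25a3, Slc25a4 and Slc25a5. Of 41 listed genes 32 were measured, 26 differed below 0 and 6 above, beside 52.3% of all probe sets below 0, and 0 passed 0.001. An unadjusted p under 0.05 in limma was reached by 10 in the lower direction and 0 in the higher, beside 9.43% and 4.35% of all probe sets. In the brightness ranges from 8 to 13, which hold most of the 32, the share of all in the lower direction was 28.2% to 41%. The 32 genes had a median of −0.09, beside −0.0049 over all probe sets, and 0.00 after cyclic loess. Uqcc2, an assembly factor of complex III, measured 11.34, 11.24 and 11.10 in OVX + E2 and 11.51, 11.54 and 11.56 in OVX, a difference of −0.31 (SE 0.061, limma adjusted p = 0.308). Atpif1, the inhibitor that keeps complex V from running backwards, measured 7.89, 7.99 and 7.84 in OVX + E2 and 8.14, 8.23 and 8.14 in OVX, a difference of −0.26 (SE 0.052, limma adjusted p = 0.308). In both the groups did not overlap. Ndufa4, now counted to complex IV, differed by −0.20 and Cmc2, an assembly factor of complex IV, by −0.21. The mitochondrially encoded subunits had no probe set with a single symbol here.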

How the data were processed

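Expression of 3 OVX + E2 and 3 OVX samples was measured on Affymetrix Mouse Genome arrays. The deposited log2 values are in arbitrary units and were made by the authors in R 2.14.2, by background correction, normalization with variance stabilization, and median polish over the probes of a probe set. Precision is limited by the number of arrays, since arrays carry no depth.

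Names came from the platform annotation, in which 34958 have 1 gene symbol, 932 several and 9211 none. All 115 members were found in RefSeq's gene table (GRCm38.p6), which changed 0 symbols. Of the member probe sets 31 carry the suffix _x_at or _s_at, which marks probes that can match several transcripts, so copies of these genes may share signal. Members and lists were chosen with earlier results of these data known.

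All 45101 probe sets entered 1 fit without covariates (limma 3.58.1, lmFit and eBayes, run under R 4.3.3), which gave OVX + E2 minus OVX and a two-sided p. The threshold was an unadjusted p of 0.001, and Benjamini-Hochberg adjustment ran over all probe sets. The fit was tested on simulated data with independent probe sets, changes larger than those of the members and no trend with brightness. That test does not cover differences as small as those described here. For medians per complex and for the ratios of complexes, the probe set with the largest interquartile range stood for a gene, and for the isoform ratios the brightest one. Ratios were compared by a two-sided exact permutation test over 20 labelings of the arrays. Ranges of brightness were 1 unit wide.

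The rule for named genes took the isoform families, up to 4 members of each complex with the smallest p, those with the most extreme differences and up to 4 other genes of the pathway. The other members are named to account for every gene. They, Myh4, Adipoq, Ppargc1a and the further regulators named beside it were added after their values had been seen. Alternatives were quantile normalization, cyclic loess (3 iterations), median centring, a filter on dim probe sets, an intensity trend in the variance model, a block for the replicate number, array weights, other choices of probe set per gene, and leaving out arrays.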

Additional observations from a re-analysis of the deposited data

How the results depend on the processing

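Counts and medians changed most with quantile normalization and cyclic loess, and isoform ratios with single arrays left out. Members that passed 0.001 numbered 1 as deposited, with median centring and with array weights, and 0 with quantile normalization, cyclic loess, the filter on dim probe sets, the replicate block, the intensity trend, without both arrays numbered 3 and without any single array. Over all probe sets 96 passed as deposited, 31 with quantile normalization or cyclic loess, 164 with median centring, 30 with the brightness filter, 21 with the replicate block, 39 with the intensity trend and 131 with array weights. Members lower at an unadjusted p under 0.05 in limma numbered 34 as deposited, 1 with either quantile normalization or cyclic loess, 14 with the intensity trend, 18 without OVX + E2 replicate 3, 15 without OVX replicate 1 and 15 to 41 over all single arrays left out. Members lower without overlap numbered 42 as deposited, 4 with quantile normalization, 3 with cyclic loess, 64 without both arrays numbered 3 and 42 to 61 with single arrays left out, since fewer arrays overlap less often. Members higher without overlap numbered 3 as deposited and 8 with cyclic loess, when 6.84% of all probe sets were lower and 7.62% higher without overlap. With quantile normalization the medians were 0.0090 for complex II, −0.021 for complex III, 0.020 for complex IV, 0.027 for complex IV assembly and 0.013 for complex V. With cyclic loess they were 0.0012, −0.0088, 0.022, 0.0076 and 0.019 in the same order. The median of complex IV assembly was −0.079 without both arrays numbered 3, −0.048 with each gene's probe sets averaged and −0.157 to −0.059 with single arrays left out. With single arrays left out the medians were −0.20 to −0.084 for complex II, −0.142 to −0.070 for complex IV and within 1.5 times the deposited value for complexes III and V. Other genes of the pathway below 0 numbered 26 as deposited, 14 with quantile normalization and 16 with cyclic loess. Of 47 named probe sets 43 differed below 0 as deposited, 24 with quantile normalization and 27 with cyclic loess. Median centring also brought Atpif1 and Uqcc2 past 0.001.

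The ratio of Cox6a2 over Cox6a1 differed by −0.013 to 0.21 with single arrays left out. That of Cox7a1 over Cox7a2 differed by 0.012 with quantile normalization, 0.057 without both arrays numbered 3 and −0.14 to 0.069 with single arrays left out, and that of Cox8b over Cox8a by −0.0053 with quantile normalization and −0.033 to 0.062 with single arrays left out. Complex IV over complex V differed by 0.012 with quantile normalization and 0.011 with cyclic loess. Complex II over complex IV differed by 0.015 without both arrays numbered 3. Complex II over complex V differed by −0.0016 with cyclic loess and by −0.035 to 0.049 with single arrays left out. Same-numbered arrays did not deviate together (correlations of −0.13, −0.20 and −0.34). The labels do not say what the numbers stand for, and 3 arrays per group cannot tell. With the replicate block 35 members were lower at an unadjusted p under 0.05, and the isoform differences stayed 0.08, −0.04 and 0.02 with an exact p of 0.75 each. The cause of these changes was not tested. The 10 member probe sets with a mean of 13 or more lie near the highest array values. Whether this limits the differences they can show was not tested.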
